A study of Mus musculus with 8 samples.

Results

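Cajal-Retzius (CR) neurons with low levels of Rspo3 and Cdkn1a were examined in single-cell RNA-seq of E15.5 mouse cortex. A member was a cell barcode with at most 25000 unique molecular identifiers (UMIs, counted RNA molecules), at least 5 Reln and at least 2 Nhlh2 UMIs per 10000, and fewer than 4 UMIs per 10000 of Rspo3, Cdkn1a and Serpine2 summed. This rule found 180 of the 3000 barcodes, which was 7.16% of the 2513 barcodes under the ceiling (95% exact interval 6.19 to 8.24, counting error only). All samples came from the cerebral cortex of Tg(Ebf2-EGFP)FB58Gsat embryos at E15.5, a transgenic strain in which EGFP marks cells by an Ebf2 reporter, and the EGFP-positive cells were sorted by flow cytometry and run on 10x Genomics Chromium. About 8 embryos from 2 timed-pregnant mice were pooled, and the 8 labelled samples of this 1 group shared 1 matrix with no map from barcodes to samples. There was thus 1 library and no untreated or mutant group, so that no test, standard error or p-value was available. Every interval given covers counting error only, and barcodes are not replicates.

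CR neurons are early-born glutamatergic neurons of the marginal zone, the outermost layer of the embryonic cortex. They secrete reelin, the extracellular protein encoded by Reln that guides the inside-out layering of later-born cortical neurons, and most of them die in early postnatal life. The cortical hem, the septum and the ventral pallium are known sources of these cells.

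The members were compared with 2 sets under the same ceiling. The first was the 93 Reln and Nhlh2 barcodes at or above the limit on the summed Rspo3, Cdkn1a and Serpine2, called the high set. The second was the 2225 barcodes with fewer than 5 Reln UMIs per 10000, called the low-Reln set. The matrix held 57180867 UMIs, and all 3000 barcodes were distinct. Members held a median of 18192 UMIs (10763 to 24975) and 4717 genes, against 15985 UMIs in the high set and 14823 in the low-Reln set. The mitochondrial share was 2.48% in members, 2.63% in the high set and 2.92% in the low-Reln set (medians). Female and male cells do not share Xist and Y-linked UMIs. A barcode was counted as holding both from 5 Xist and 2 Y-linked UMIs upward. Such barcodes numbered 1 of 180 members, 2 of 93 high and 20 of 2225 low-Reln barcodes.

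The 3 genes of the limit describe how the members were chosen. Rspo3 encodes a secreted R-spondin that amplifies Wnt signals, Cdkn1a encodes the p21 inhibitor of cyclin-dependent kinases, and Serpine2 encodes a secreted protease inhibitor. The summed level had a median of 0.978 per 10000 in members, and 45 of 180 members held no UMI of any of the 3 genes. Rspo3 was at 0 in 88 members, Cdkn1a in 108 and Serpine2 in 138, whereas the high set had 1, 18 and 36 such barcodes of 93. The histogram of the summed level showed no gap at the limit: 42 barcodes lay between 3 and 5 per 10000. The 3 barcodes nearest the limit from inside were at 3.82, 3.86 and 3.95 per 10000, and the 3 nearest from outside at 4.02, 4.02 and 4.03. For Reln the lowest member was at 5.57 per 10000 and the highest barcode outside, with the other limits met, at 4.80. For Nhlh2 the corresponding values were 2.25 and 1.84.

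**Figure D1:**
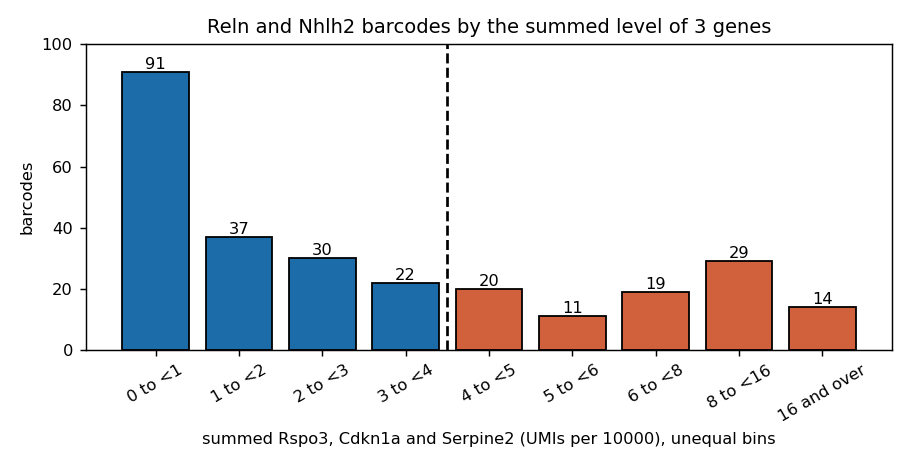
Number of Reln and Nhlh2 barcodes (y axis) in bins of the summed level of Rspo3, Cdkn1a and Serpine2 (x axis, UMIs per 10000, unequal bins). Members are blue, the high set is orange, and the dashed line is the limit of 4 per 10000, which falls between bins of 22 and 20 barcodes.

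To obtain values of these genes that the choice did not use, each barcode's UMIs were divided at random into 2 equal parts, the rule was applied to the first part and the levels were read from the other. The 183 barcodes chosen this way had 110 CPM of Rspo3 (95% interval 94.8 to 128) in the unused UMIs, where CPM is counts per 1000000 UMIs of the set. The 86 barcodes of the corresponding high set had 495 CPM of Rspo3 (444 to 550). Cdkn1a stood at 56.7 CPM against 230 CPM, and Serpine2 at 24.04 CPM against 132 CPM. The Rspo3 level of the members was thus near that of the low-Reln barcodes (97.9 CPM), while their Cdkn1a level was above the 10.3 CPM found there. Of the 183 barcodes, 146 (79.8%) met the members' rule again in the unused UMIs, and 25 (13.7%) fell into the high set. The high set was more mixed: 61 of its 86 barcodes (70.9%) were high again, and 23 (26.7%) met the members' rule.

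The label was then checked against markers that the rule did not use. Trp73, the p53-family transcription factor needed for CR neuron survival, had 171 CPM in members (157 to 186) and 4.99 CPM in the low-Reln set, a log2 ratio of 5.10 (4.85 to 5.36). Ndnf (chr6:65671590-65712326 in GRCm38), which encodes a secreted neurotrophic factor, had 166 CPM against 3.15 CPM. Snhg11 (chr2:158375638-158386145), a long noncoding RNA gene, had 492 CPM against 62.6 CPM, and Calb1, a calcium-buffering protein gene, 36.0 CPM against 10.9 CPM. All 4 were higher in members than in the low-Reln set. After each barcode was thinned to 10700 UMIs, 80.6% of members held a Trp73 UMI (74.0 to 86.1), against 4.54% of low-Reln barcodes at the same depth. Ndnf was detected in 65.6% of thinned members against 3.96%, Snhg11 in 85.6% against 14.1%, and Calb1 in 26.1% against 5.89%. Calb1 was thus the weakest of the markers, with 113 of 180 members at 0 UMIs. Ebf2, whose reporter was the basis of the sort, had 40.3 CPM in members, 16.1 CPM in the high set and 2.22 CPM in the low-Reln set.

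**Figure D2:**
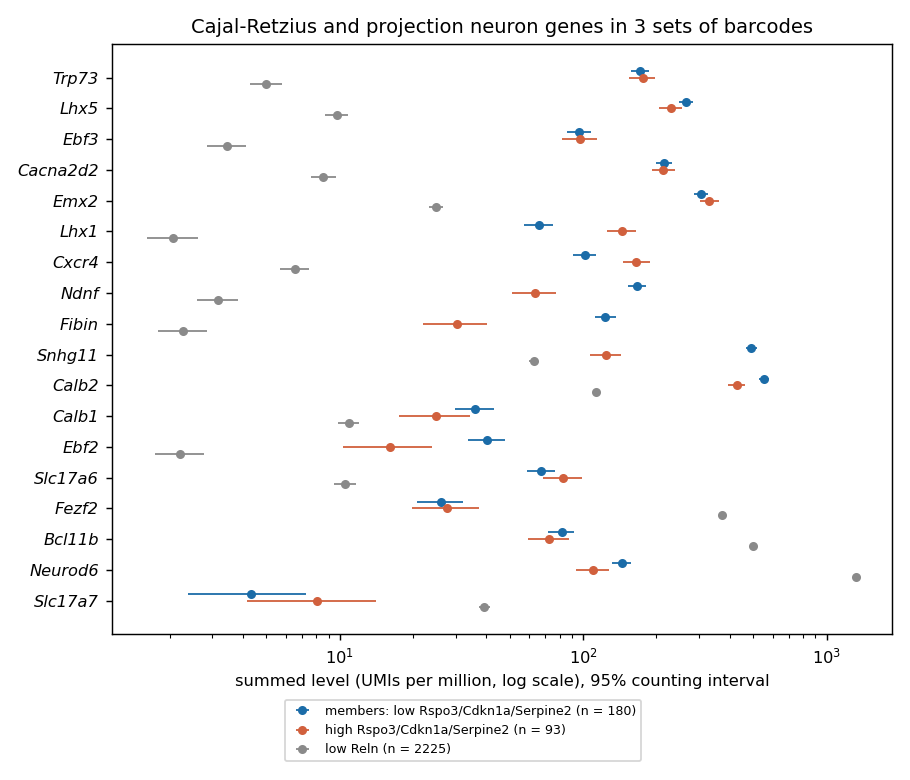
Summed level of 18 genes (x axis, CPM, log scale) in members (blue), the high set (orange) and the low-Reln set (grey), with 95% counting intervals. The CR genes from Trp73 to Slc17a6 lie to the right of the low-Reln points, and Fezf2, Bcl11b, Neurod6 and Slc17a7 lie to the left of them.

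Across all genes except the 5 of the rule, the members differed from the low-Reln set in both directions. A gene was counted as higher or lower when its summed level differed by at least 2-fold and the whole 95% interval of the ratio lay on that side of 1, among genes with a mean of at least 20 CPM over the 2 sets. Of 5937 such genes, 417 were higher (7.02%) and 296 lower (4.99%), 12% in all, and the median log2 ratio of all of them was 0.14. The CR markers lay far from this background, with 10 of 10 measured genes higher and a median log2 ratio of 4.71. Since Reln and Nhlh2 chose the members in this contrast, these counts describe the set and support nothing further. The largest ratios belonged to Fibin, a secreted protein gene (123 CPM against 2.28 CPM, log2 ratio 5.76), Ndnf (5.72), the zinc-finger gene Insm2 (5.62) and the neighbouring zinc-finger genes Zic2 (5.61) and Zic5 (5.59). They were followed by Lmcd1, a LIM-domain transcription regulator (5.51), the noncoding E330013P04Rik (5.42), the BMP-family ligand Gdf5 (5.41), the chemokine Cxcl1 (5.41) and the amino acid transporter Slc7a10 (5.34). None of these was detected in every member: Fibin was at 0 in 81 of 180 members, Insm2 in 76 and Cxcl1 in 121.

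Of 25 measured transcription factor genes associated with CR neurons, 15 were higher in members, 7 lower and 3 neither. The shares over all genes measured against the low-Reln set were 7.02% higher and 4.99% lower. Lhx1 and Lhx5 encode LIM-homeodomain factors of forebrain boundary regions, and Emx2 a homeodomain factor of the dorsal and caudal pallium. Lhx5 had 265 CPM in members against 9.72 CPM (log2 ratio 4.77), Lhx1 had 65.7 CPM against 2.07 CPM (4.99), and Emx2 had 305 CPM against 24.9 CPM (3.61). Ebf3, a helix-loop-helix factor related to Ebf2, had 96.1 CPM against 3.44 CPM (4.80). Zic1, expressed at the dorsal midline and septum, had 146 CPM against 15.4 CPM (3.25). The lower genes of the list included Emx1, Meis2, Lmo1, Lmo3, Neurod2 and Neurod6.

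The study named Cxcr4, Emx2, Lhx1 and Lhx5 as genes of different regions of CR origin, a choice made on these same samples and so not independent of them. All 4 were higher in members than in the low-Reln set. Individual members held them together: at 10700 UMIs, 125 of 180 members (69.4%, 62.2 to 76.1) had a UMI of at least 3 of the 4 genes, 48 had exactly 2, and 1 had none. In the low-Reln set 0.719% of barcodes had at least 3. In the high set the share was 84.9% (76.0 to 91.5), an interval that met that of the members only at its edge. Genes of the cortical hem, summed without Rspo3, stood at 71.6 CPM in members (62.7 to 81.5), 153 CPM in the high set (134 to 174) and 13.7 CPM in the low-Reln set, so that members lay between the others, although no single hem gene reached the mean of 20 CPM against the low-Reln set. Genes of the septum and anterior midline summed to 201 CPM in members, 212 CPM in the high set and 25.9 CPM in the low-Reln set. Wnt2b, Wnt3a, Bmp6 and Gdf7 of the cortical hem list had no UMI in any member. Of the ventral pallium and thalamic eminence genes, 4 of 5 measured were higher than in the low-Reln set (7.02% of all genes). Among them were Pax6 (43.4 CPM against 5.02 CPM) and Barhl2, a homeobox gene detected in 38.9% of thinned members.

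Genes of migration, transmission and excitability were mixed. For comparison, 7.02% of all genes measured were higher than in the low-Reln set and 4.99% lower. The chemokine list had 3 of 3 measured genes higher: Cxcr4, the receptor that holds CR neurons under the meninges (102 CPM against 6.54 CPM, 3.96), its ligand Cxcl12 (153 CPM against 15.99 CPM, 3.26) and Cxcl1. The vesicular glutamate transporter genes went opposite ways, with Slc17a6 at 67.3 CPM against 10.6 CPM (2.67) and Slc17a7 at 4.34 CPM against 39.3 CPM (-3.18). Of 12 measured sodium, calcium and HCN channel genes, 4 were higher and 1 lower. The largest was Cacna2d2, an auxiliary calcium channel subunit gene (216 CPM against 8.58 CPM, 4.65). Of 11 potassium channel genes 5 were higher and 3 lower, and Kcnh7 had 94.0 CPM against 19.96 CPM. Of 27 synaptic vesicle genes 1 was higher (Syn2, 1.88) and 5 were lower, including the complexin gene Cplx1 (-1.68) and the synuclein gene Sncb (-1.83). Axon guidance and adhesion genes gave 8 higher and 14 lower of 29, with Nrp1, a semaphorin co-receptor gene, at 15.505 CPM against 130 CPM (-3.07).

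Of 8 measured genes of deep-layer projection neurons, 6 were lower in members and none higher (median log2 ratio -2.62). Fezf2, the selector of corticospinal fate, had 26.0 CPM in members against 372 CPM (-3.84), and Bcl11b, which acts downstream of it, 81.6 CPM against 499 CPM (-2.61). Among the other genes with the lowest ratios were Mn1 (-3.94), Lpl, encoding lipoprotein lipase (-3.78), the ephrin receptor gene Epha4 (-3.56), Ldb2 (-3.51), Nell2 (-3.48) and the splicing factor gene Rbfox1 (-3.47). Among the 21 measured genes of reelin reception and its downstream steps none was higher and 4 were lower, beside 7.02% and 4.99% of all genes. Dab1, the adaptor that reelin receptors signal through, had 18.3 CPM in members and 206 CPM in the low-Reln set (-3.49), and 136 of 180 members held no Dab1 UMI. The other lower genes of that list were Dcx (-1.28), Efnb1 (-1.10) and Pik3r1 (-1.64). Neurod6, a projection neuron transcription factor gene chosen after its values were seen, reached 5 UMIs per 10000 in 9 of 180 members and in 1850 of 2225 low-Reln barcodes (83.1%). The summed level of deep-layer markers was 890 CPM in members and 827 CPM in the high set, against 2694 CPM in the low-Reln set.

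Against the high set the members differed in far fewer genes. Of 6031 genes measured, 62 were higher in members (1.03%) and 52 lower (0.862%), 1.89% in all, with a median log2 ratio of -0.00063. Of the 10 measured CR markers 3 were higher (Ndnf, Snhg11 and Ebf2), 1 was lower (Lhx1) and 6 were neither. Their summed level was 2102 CPM in members and 1514 CPM in the high set. Most of that difference came from Snhg11 and Ndnf, whose levels are given below. Trp73 stood at 171 CPM against 175 CPM (log2 ratio -0.04, -0.25 to 0.18), Ebf3 at 96.1 CPM against 96.8 CPM (-0.01, -0.30 to 0.29), Cacna2d2 at 216 CPM against 214 CPM (0.01, -0.18 to 0.21) and Zic1 at 146 CPM against 149 CPM (-0.02, -0.25 to 0.22). Lhx5 (0.21), Emx2 (-0.11), Calb1 (0.53) and Gdf5 (0.06) were likewise within 2-fold. The members and the high set thus differed over a limited group of genes, described next by role.

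The largest ratio in favour of the members was that of Vwc2, which encodes a secreted BMP antagonist: 37.2 CPM in members and 4.03 CPM in the high set, a log2 ratio of 3.21 (2.04 to 4.68). It was carried by part of the members, since 125 of 180 held no Vwc2 UMI. Next came the desmosomal gene Dsp (39.1 CPM against 5.38 CPM, 2.86), Tmem130 (67.0 CPM against 10.1 CPM, 2.73), the A-type potassium channel partner gene Kcnip1 (50.5 CPM against 8.74 CPM, 2.53) and the potassium channel gene Kcna6 (39.7 CPM against 7.39 CPM, 2.42). Scg2, a secretory granule protein gene, had a log2 ratio of 2.20, the striatum-enriched phosphodiesterase gene Pde10a 2.08, Fibin 2.03 and Hpca, which encodes the calcium sensor hippocalcin, 2.01. Potassium channel genes gave 2 higher of 7 measured, and sodium, calcium and HCN channel genes none of 12 in either direction. Transmitter receptor genes gave 1 higher of 12, and calcium-binding protein genes 2 higher (Hpca and Vsnl1) and 2 lower of 13. The shares over all genes measured were 1.03% higher and 0.862% lower. With the limit on the summed genes at 2 the log2 ratios of Tmem130, Kcna6, Scg2, Hpca and Fibin were 1.93, 1.62, 1.44, 1.41 and 1.39, and that of Vsnl1 was 0.66. Without the ceiling on UMIs Vwc2 stood at 1.92 and Tmem130 at 1.52.

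Snhg11 was the most abundant of these genes. Its median was 3.55 UMIs per 10000 in members (0 to 28.5) and 0 in the high set (0 to 10.6), and the summed levels were 492 CPM and 124 CPM, a log2 ratio of 1.99 (1.77 to 2.22). The distributions overlapped, with 21 of 180 members and 47 of 93 high barcodes at 0. Ndnf had a median of 1.18 per 10000 in members and 0 in the high set, with 166 CPM against 63.2 CPM (1.40, 1.08 to 1.73). When the sets were chosen on 1 part of the UMIs and levels read from the other, the Ndnf log2 ratio was 0.75, below 2-fold. Ebf2 was also higher (40.3 CPM against 16.1 CPM, 1.32, and 0.78 in the unused UMIs), as were the chemokine Cxcl12 (153 CPM against 69.9 CPM, 1.13, and 0.75 in the unused UMIs) and the ligand Wnt7b (342 CPM against 163 CPM, 1.07, and 0.93 in the unused UMIs).

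Among genes of mature neurons, 2 of 23 measured were higher in members than in the high set (1.03% of all genes) and none lower (0.862%). Snhg11 was among them, and the median log2 ratio of the list was 0.44. Of 24 synaptic vesicle genes 2 were higher, Cplx1 (32.2 CPM against 14.1 CPM, 1.19) and Sncb (59.5 CPM against 26.9 CPM, 1.15), with a median of 0.35. Both were nevertheless below the low-Reln set, at 103 CPM and 211 CPM there. Without the ceiling on UMIs the log2 ratio of Sncb was 0.58, below 2-fold. Thinning to 1 depth gave 0.84 for Cplx1.

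Immediate early genes, which are transcribed within minutes of stimulation and also during tissue dissociation, were the list with the most higher members: 6 of 13 measured (Nr4a1, Npas4, Jun, Fosb, Junb and Egr1), none lower, and a median log2 ratio of 0.66. The share higher over all genes measured was 1.03%. Npas4, an activity-dependent transcription factor gene of neurons, had 74.1 CPM in members (65.0 to 84.1) and 16.1 CPM in the high set, a log2 ratio of 2.20 (1.59 to 2.87). The nuclear receptor gene Nr4a1 had 44.3 CPM against 6.05 CPM (2.87), and Fosb 91.2 CPM against 35.0 CPM (1.38). Jun, which encodes an AP-1 subunit, had 458 CPM against 159 CPM (1.52), and its median over barcodes was 1.73 per 10000 in members and 0.725 in the high set. Fos, the most abundant of these genes, had 948 CPM against 598 CPM (0.66), below 2-fold. Against the low-Reln set none of the 13 measured genes was higher, 1 was lower (Nr4a1, 44.3 CPM against 89.4 CPM) and the median was 0.16. Over all genes measured there, 7.02% were higher and 4.99% lower. By the list median the members were thus near the low-Reln barcodes of the same matrix, while single genes went both ways. The median over barcodes was 7.54 per 10000 in members and 4.25 in the low-Reln set for Fos, and 0 and 0.578 for Npas4. In summed level the high set stood below both for Npas4, Nr4a1, Fosb and Jun. The part of dissociation in these levels was not tested. Without the ceiling the log2 ratios of Jun, Junb and Egr1 were 0.99, 0.96 and 0.43.

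Upstream sequence is shown for 3 of these genes, because they moved together between the 2 CR sets and CREB, a factor that many of them respond to, binds the core TGACG. Each line is the 250 bases before the RefSeq start site in GRCm38.p6, 5′ to 3′ on the gene's strand, with TGACG on either strand (TGACG or CGTCA) in capitals. The windows are chr15:101266596-101266845 on the plus strand for Nr4a1, chr19:4989972-4990221 on the minus strand for Npas4, and chr7:19310046-19310295 on the minus strand for Fosb.
Nr4a1: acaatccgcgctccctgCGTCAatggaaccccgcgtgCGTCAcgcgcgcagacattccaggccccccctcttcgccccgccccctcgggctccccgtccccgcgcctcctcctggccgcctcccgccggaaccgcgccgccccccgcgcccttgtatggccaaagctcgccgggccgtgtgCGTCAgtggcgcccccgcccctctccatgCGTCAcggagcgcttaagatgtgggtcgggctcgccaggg
Npas4: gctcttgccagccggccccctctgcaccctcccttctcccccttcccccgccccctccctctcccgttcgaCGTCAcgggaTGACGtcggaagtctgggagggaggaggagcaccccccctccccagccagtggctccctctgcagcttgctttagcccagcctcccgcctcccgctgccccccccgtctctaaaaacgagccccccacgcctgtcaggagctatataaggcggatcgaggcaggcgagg
Fosb: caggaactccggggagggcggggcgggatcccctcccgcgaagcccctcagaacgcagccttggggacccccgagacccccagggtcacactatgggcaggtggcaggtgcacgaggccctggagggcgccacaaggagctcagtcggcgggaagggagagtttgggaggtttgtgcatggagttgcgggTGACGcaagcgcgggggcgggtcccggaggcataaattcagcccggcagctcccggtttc
The Nr4a1 window held 4 matches, the Npas4 window 2 and the Fosb window 1. Of the 6 higher immediate early genes 5 had a window, and 4 of these held the core, Jun being the exception. Over the whole list 14 genes had a window, and 9 of these genes held it in at least 1 window. Of all 32851 windows of that length 17.8% held it, a share counted by window and not by gene. The full palindrome TGACGTCA, a CArG box and the AP-1 letters TGACTCA were in none of the 5. A match of letters is a description of the window and not evidence of binding.

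The genes lower in members than in the high set included some of newborn neurons and progenitors. The immature neuron list had 4 of 20 measured genes lower and none higher (median -0.35), beside 0.862% and 1.03% of all genes measured. Igfbpl1 (chr4:45809468-45826923), a growth-factor binding protein gene of newborn neurons, had a median of 2.45 UMIs per 10000 in members (0 to 27.1) and 12.4 in the high set (0.672 to 39.0). Its summed levels were 407 CPM and 1276 CPM, a log2 ratio of -1.65 (-1.75 to -1.54). Most members therefore lay below the high set, yet the ranges overlapped. Eomes, a T-box gene of intermediate progenitors, had 8.99 CPM against 45.04 CPM (-2.32), the helix-loop-helix gene Neurod1 had 14.9 CPM against 51.8 CPM (-1.80) and Nhlh1, the paralog of the rule gene Nhlh2, 27.6 CPM against 92.8 CPM (-1.75). Sox4 (-0.36), Sox11 (-0.53) and Dcx (0.28), which are broadly expressed in young neurons, differed by less than 2-fold. Without the ceiling the Neurod1 log2 ratio was -0.04.

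C1ql1, a secreted C1q-like ligand gene, had the lowest ratio to the high set (22.3 CPM against 127 CPM, -2.51), followed after Eomes by the LIM-domain gene Csrp1 (-2.14), the centromere protein gene Cenpw (56.7 CPM against 228 CPM, -2.01) and the co-repressor gene Tle1 (-1.93). Vcam1, an adhesion molecule gene, stood at 30.1 CPM against 109 CPM (-1.86), and Dcxr, a sugar reductase gene, at 12.4 CPM against 41.0 CPM (-1.72). The collagen chaperone gene Serpinh1 stood at 86.2 CPM against 230 CPM (-1.42). Of 10 measured genes of the Wnt and R-spondin list, which left out Rspo3, the nuclear effector gene Lef1 (-1.87) and the R-spondin gene Rspo2 (17.4 CPM against 50.4 CPM, -1.54) were lower and Wnt7b was higher. In the unused UMIs the Rspo2 log2 ratio was -0.85. Of 18 measured p53-family targets and arrest or survival genes, which left out Cdkn1a, Phlda3 was lower (54.9 CPM against 122 CPM, -1.15) and none was higher. Mdm2, which encodes the ligase that degrades p53, had a log2 ratio of -0.69. For both lists, the shares over all genes measured were 1.03% higher and 0.862% lower.

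Developmental transcription factors were part of the same group. Emx1 (-1.62), Pax6 (43.4 CPM against 106 CPM, -1.29), the doublesex-related gene Dmrt3 (36.3 CPM against 86.0 CPM, -1.25) and Lhx1 (65.7 CPM against 145 CPM, -1.14) were lower in members. Lhx1, Pax6, Dmrt3, Serpinh1 and Phlda3 were also among the 8 genes that were higher in members than in the low-Reln set and lower than in the high set, so that the members lay between the other sets. With the limit at 2 the Lhx1 log2 ratio was -0.84, and without the ceiling that of Emx1 was -0.61. Conversely, 24 genes were higher in members than in either set, among them Snhg11, Ndnf, Fibin, Ebf2, Cxcl12, Dsp, Vwc2, Kcna6, Scg2 and Hpca. The lower genes included a Y-linked one, and the embryo of origin of each barcode was not known.

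**Figure D3:**
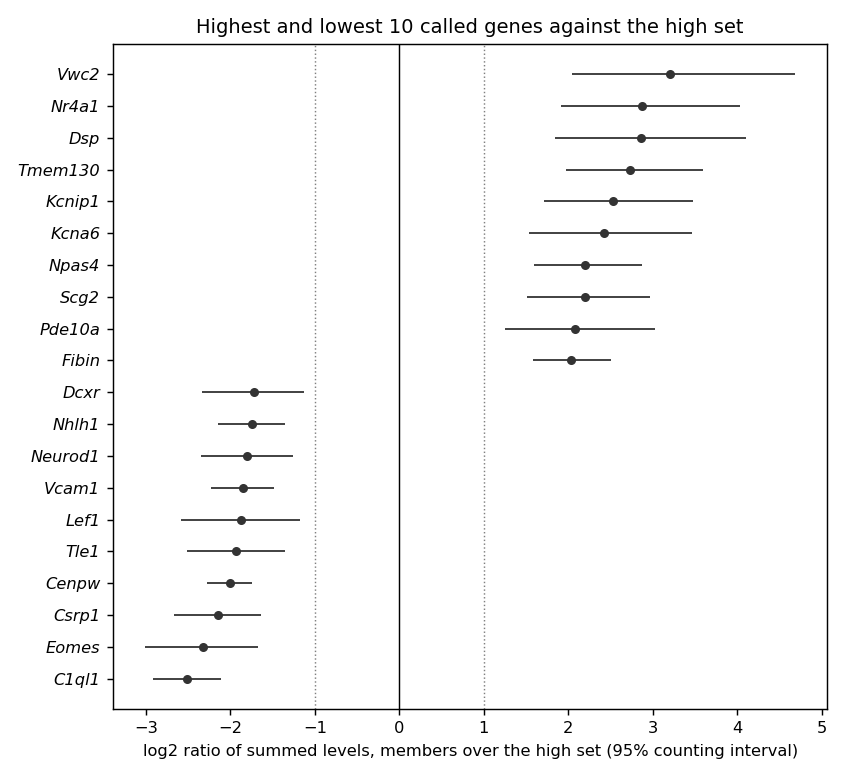
Log2 ratio of summed levels in members over the high set (x axis) for the 10 highest and 10 lowest genes counted, with 95% counting intervals and dotted lines at 2-fold. Ratios run from 3.21 for Vwc2 down to -2.51 for C1ql1, and the intervals of the higher genes are wider because the high set held few of their UMIs.

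Because the limit cut a continuous range, levels were also read along the summed Rspo3, Cdkn1a and Serpine2 scale, in bins of 91, 37, 52, 50, 29 and 14 barcodes. Snhg11 stood at 615 CPM in barcodes under 1 per 10000, at 447, 313, 149 and 97.1 CPM in the next 4 bins, and at 70.8 CPM in the 14 barcodes at or above 16. Igfbpl1 ran the other way, with 251, 481, 622, 968 and 1540 CPM in the first 5 bins and 2079 CPM in the last. Both gradients were present without the last bin of 14 barcodes and within the members alone, in the first 3 bins. Cenpw moved from 27.8 to 309 CPM over the first 5 bins, Nhlh1 from 10.5 to 140 CPM, Pax6 from 21.6 to 122 CPM and Serpinh1 from 48.2 to 287 CPM. Npas4 went from 105 to 13.5 CPM, and Fibin from 165 to 9.03 CPM. Ndnf was highest in the first bin (186 CPM), with 146 and 148 CPM in the other bins of members. Above the limit it was lower, at 91.7 and 33.9 CPM, with no UMI in the last bin. Trp73 showed no such course, with 166, 156, 190, 159, 205 and 180 CPM, and neither did Cacna2d2, with 205 to 238 CPM over the 6 bins. These genes were chosen for display after their values were seen.

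**Figure D4:**
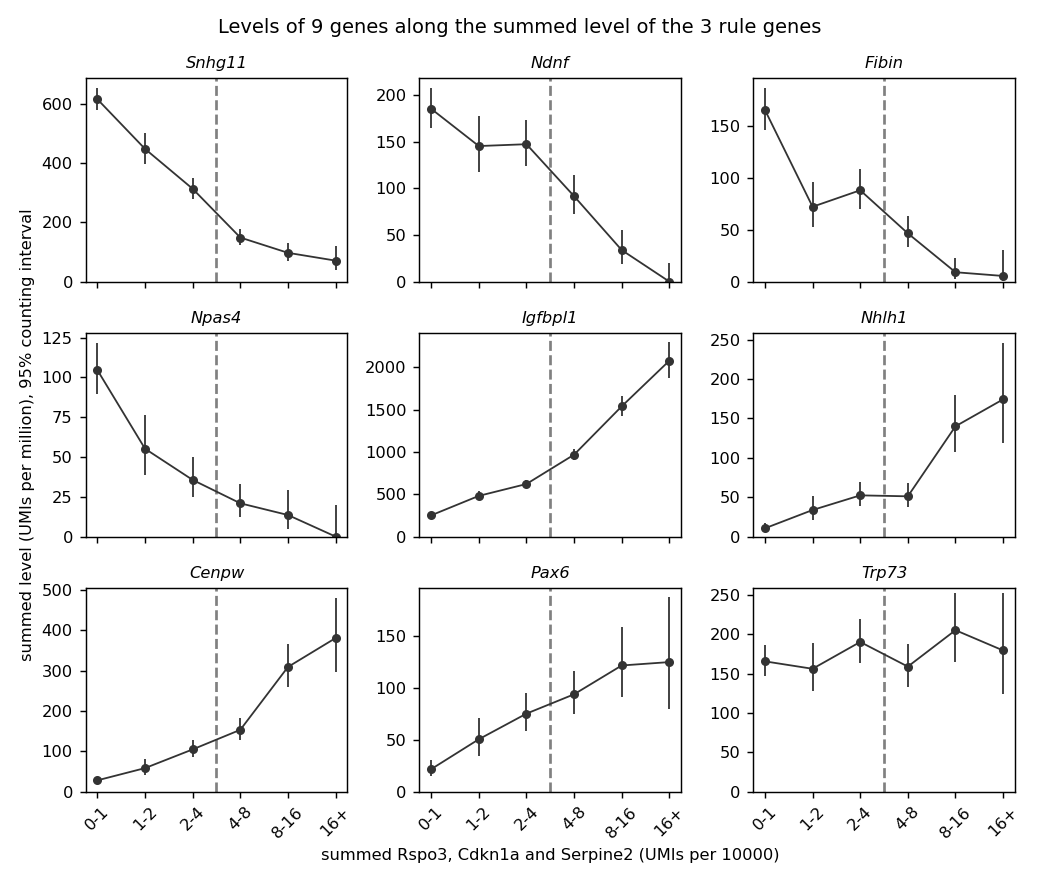
Summed level (y axes, CPM, 95% counting intervals) of 9 genes in 6 bins of the summed level of Rspo3, Cdkn1a and Serpine2 (x axes, UMIs per 10000), with members left of the dashed line. Snhg11, Ndnf, Fibin and Npas4 are highest in the first bin, Igfbpl1, Nhlh1, Cenpw and Pax6 are lowest there, and Trp73 stays between 156 and 205.

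Members also differed among themselves. At 10700 UMIs per barcode, 3563 genes had a mean of at least 0.5 UMIs, and the median ratio of variance to mean (Fano factor, near 1 for counting noise alone) was 1.07, with 124 genes above 2. The genes described here were picked after these values were seen, and not every gene with a high value is named. Malat1, a nuclear noncoding RNA, had 61.6, the cytoskeletal gene Actb 21.3 and the imprinted gene Nnat 19.5. Next came Jun (13.9) and Junb (10.0). Further down, below genes not named here, Fos had 7.58 and Klf4 6.85. Jun ranged from 0 to 37.4 UMIs per 10000 over members, with 24 at 0 and quartiles at 0.621 and 5.94. Of the CR genes Calb2, which encodes the calcium-binding protein calretinin, had the highest Fano factor (7.72). Its median was 2.94 per 10000, its range 0 to 38.6, and 28 members were at 0. Snhg11 followed with 6.19. Reln itself, on which members were chosen, ranged from 5.57 to 51.6 per 10000 around a median of 20.8.

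**Figure D5:**
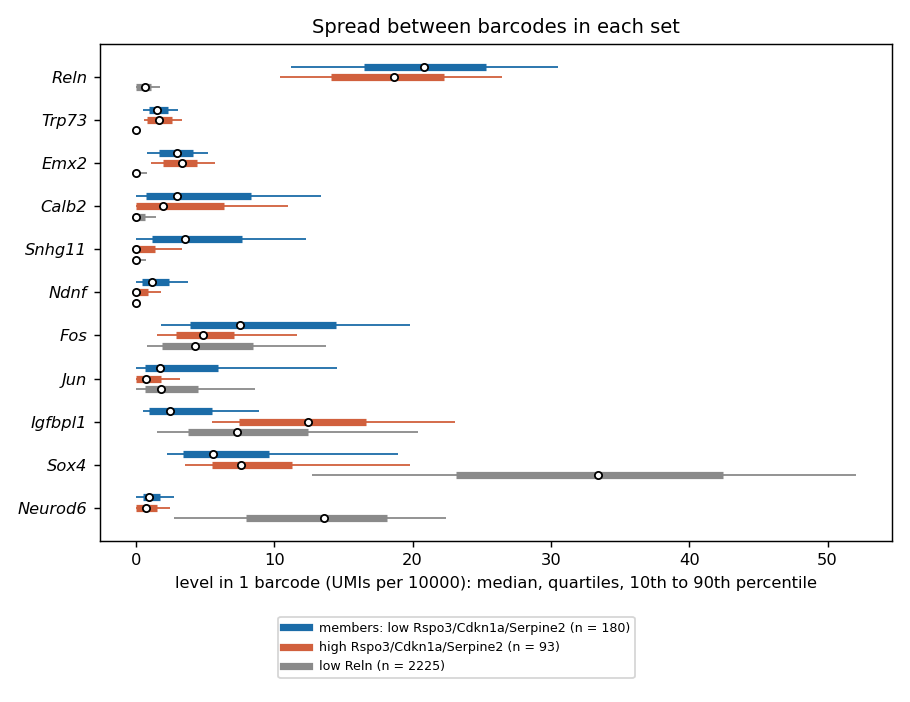
Level of 11 genes in single barcodes (x axis, UMIs per 10000) for members (blue), the high set (orange) and the low-Reln set (grey). Circles are medians, thick lines quartiles and thin lines the 10th to 90th percentile. Snhg11 is centred at 3.55 in members and at 0 in the other sets, and Igfbpl1 at 2.45 in members and 12.4 in the high set.

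Markers of other cells were compared by their summed levels. Subplate markers stood at 576 CPM in members, 579 CPM in the high set and 263 CPM in the low-Reln set. That sum was mostly Tmem163, with a member median of 4.71 per 10000 against 5.57 for the whole list. Of 4 subplate genes measured against the low-Reln set, Tmem163 was higher, Nr4a2 and Hs3st4 were lower and 1 was neither (median log2 ratio -1.30). The shares over all genes there were 7.02% higher and 4.99% lower. Upper-layer markers stood at 414 CPM in members, 461 CPM in the high set and 377 CPM in the low-Reln set. Of 8 microglia markers 3 had a UMI in any member (summed 4.96 CPM, against 9.83 CPM in the low-Reln set), with C1qa, C1qb, C1qc, Csf1r and P2ry12 at 0. Of 11 meningeal and mural markers 6 had a UMI (7.13 CPM, against 1.72 CPM in the low-Reln set), with Col1a2, Col3a1, Dcn and Lum at 0, and of 7 choroid plexus markers 3 (2.79 CPM, against 18.1 CPM in the high set and 0.992 CPM in the low-Reln set), with Ttr at 0. Endothelial markers summed to 12.1 CPM, interneuron markers to 6.82 CPM and erythroid genes to 42.5 CPM, against 12.1, 6.72 and 42.3 CPM in the high set and 9.25, 28.5 and 518 CPM in the low-Reln set. The last 2 of these low-Reln sums were unevenly held. Erythroid genes were at 0 in 1237 of 2225 low-Reln barcodes and reached 8560 per 10000 in the highest. Interneuron markers were at 0 in 2007 and reached 215 per 10000. Radial glia and dividing cell markers differed between the CR sets: 12 of 14 had a UMI in members, with Hes1 and Mki67 at 0, and their sum was 222 CPM in members (0 to 11.6 per 10000 over barcodes) and 477 CPM in the high set (0 to 15.6), against 229 CPM in the low-Reln set. Pax6 and Vim, a filament gene of radial glia, were the 2 lower genes of that list, and in the unused UMIs the Vim log2 ratio was -0.94. Intermediate progenitor markers summed to 212 CPM in members, 283 CPM in the high set and 159 CPM in the low-Reln set, with all 8 detected in members. The part of these markers in the difference from the high set was not tested.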

How the data were processed

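Single-cell RNA was measured in FACS-sorted Ebf2-EGFP-positive cortical cells. The deposited matrix held raw UMI counts, whole numbers for each gene in each barcode, and Cell Ranger 2.0.0 is the tool the submitters name for it. Their processing notes name the build mm10 and also Seurat 2.0, which was not needed here. Annotation of genes came from GENCODE M21 (GRCm38). No cell annotation of the authors was used. The study stated about 3000 cells, and the matrix held 3000 barcodes.

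Files were read with Python 3.11.15, numpy 2.4.6, scipy 1.17.1 and pandas 2.3.3. UMIs were summed over the barcodes of a set and scaled to CPM, with exact Poisson intervals at 95%, ratios with exact conditional binomial intervals and shares with Clopper-Pearson intervals. These intervals cover counting error only. With 1 pooled library no test was run. Barcodes held 10718 UMIs or more under the ceiling. Thinning drew 10700 UMIs from each barcode and left none out. The ceiling on UMIs limited doublets in the members, and Scrublet (scanpy 1.11.5) entered only as an alternative that left out the 2.3% of barcodes with the highest scores. Upstream windows came from the RefSeq promoter table. On simulated counts, 200 of 200 changed genes were recovered against the low-Reln set, and 199 of 199 against the high set with 2 of 5763 unchanged genes counted. The simulated barcodes of a set differed by counting error only. The changed genes were picked well above the 20 CPM filter and were changed by more than 2-fold. This checked the calculation and gives no error rate for the real barcodes, which varied more.

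The members, the 35 gene lists and the rules were chosen with earlier results of these data known. Named genes were the 10 highest and 10 lowest ratios of each comparison among counted genes (leaving out those with over 20% of their UMIs in 1 barcode), the 6 markers and 5 rule genes, up to 4 genes per list with the largest absolute ratio, and genes that the study discusses for CR cells. Genes outside this rule are marked as chosen after their values were seen, or stand as members of a list. There were 14 alternatives fixed at the outset and 1 added after seeing the data. Results for some genes are not reported here.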

Additional observations from a re-analysis of the deposited data

Results flagged for a closer look

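Barcodes above the ceiling were not used as members. Of 487 such barcodes, 190 (39.0%, 34.7 to 43.5) met the members' other limits, with a median of 37621 UMIs. Their summed levels were 121 CPM of Trp73, 195 CPM of Ndnf and 502 CPM of Neurod6, against 171, 166 and 144 CPM in members. Of the 190, 61 (32.1%) held both Xist and Y-linked UMIs at the limits given above.

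A further 15 barcodes under the ceiling reached the Reln limit but not that of Nhlh2. They had 97.2 CPM of Trp73, 632 CPM of Snhg11, 32.4 CPM of Ndnf and 571 CPM of Neurod6. At the same limits, 3 of the 15 held both Xist and Y-linked UMIs.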

How the results depend on the processing

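No paired analysis was possible because all samples shared 1 matrix with no map from barcodes to samples, and for the same reason no replicate could be left out. The members' share of barcodes was 5.09% with a limit of 2 on the summed genes, 8.40% with a limit of 6, 6.13% with Reln at 10 and Nhlh2 at 4, 12.3% of all barcodes without the ceiling and 4.29% with a ceiling of 18000 UMIs. With a filter at 5 CPM, 859 genes were higher and 653 lower than in the low-Reln set, and 188 and 165 against the high set. At 50 CPM these counts were 170 and 146, and 21 and 23. Without the ceiling 291 genes were higher and 182 lower than in the low-Reln set, and 96 were higher than in the high set. At a ceiling of 18000 UMIs 132 were higher and 116 lower than in the high set. A limit of 6 gave 100 higher than in the high set, and thinning gave 84 lower. At full depth 91.7% of members held a Trp73 UMI, 76.7% an Ndnf UMI and 42.2% an Ebf2 UMI. With the ceiling of 18000 the log2 ratios of the haemoglobin genes Hba-a1 and Hbb-bt against the low-Reln set turned to 0.28 and 0.10, in a gene family held mostly by 1 low-Reln barcode. The causes of the other shifts were not tested.

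Of 62 genes higher and 52 lower than in the high set, 40 and 38 were counted again when members were chosen on 1 part of the UMIs and levels read from the other. With a limit of 2 these numbers were 32 and 35, and without the ceiling 37 and 39. Of 1924 single-gene ratios against the high set under alternatives, 1746 stayed within the counting interval of the value reported, 92 were higher, 86 lower and none reversed. The shifts were unevenly spread over alternatives: without the ceiling 95 of 148 stayed, 22 were higher and 31 lower. The filters at 5 and 50 CPM cannot move a ratio, so the 148 values of each stayed by construction and are no measure of stability. Leaving out members and high barcodes with Neurod6 at 5 or more per 10000, an alternative added after seeing the data, left 60 higher and 49 lower genes. Depth limits genes near 20 CPM, whose intervals against the high set of 1487723 UMIs are wide. Against the low-Reln set, 1843 of 2156 such ratios stayed, the 2 filters included, 179 were higher, 132 lower and 2 reversed. There, without the ceiling, 50 stayed, 57 were higher and 47 lower.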
